A study of Mus musculus with 58 samples.

Results

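The comparison of control male with control female ASC2, the DPP4+ class of adipose stem cells (ASC), asks which autosomal genes separate progenitors of a testis-intact mouse from those of an ovary-intact mouse. Its members were chosen by plate position alone: the libraries of plate column 1 in rows A to H form the male group (n = 8) and those of plate column 3 in rows A to H the female group (n = 8), 16 of the 58 libraries of the series. All animals were C57BL6/J mice, killed at 10 weeks of age, and the cells came from inguinal white adipose tissue (iWAT), the subcutaneous fat pad of the groin. The control mice kept their gonads, whereas the other ASC2 groups of the series came from castrated males (n = 8) and ovariectomized females (n = 8) operated at 4 weeks. Cells were sorted as CD45-/CD31-/CD34+/DPP4+, which leaves out blood and endothelial cells, and each library is a Smart-seq3 bulk library of the sorted cells. In such bulk samples, fewer cells expressing a gene and less RNA per cell cannot be told apart. The DPP4- cells of the same tissue, ASC1, are given only where the ASC2 difference was compared with theirs (male n = 7, female n = 8). X, Y and mitochondrial genes and genes without a chromosome in the annotation were left out, which kept 11960 autosomal genes of the 12464 tested.

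ASC are fibroblast-like mesenchymal cells that line the vessels and septa of fat, make its collagen matrix and give rise to adipocytes. DPP4+ cells are regarded as an early, interstitial pool that sits upstream of more committed preadipocytes. Androgens and estrogens act through nuclear receptors that bind DNA as dimers, and the local strength of each hormone also depends on enzymes that activate or inactivate steroids, such as sulfotransferases and hydroxysteroid dehydrogenases.

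Levels are given as CPM, counts scaled to the size of each library, as lowest, median and highest of 8 libraries. The total count was between 461907 and 1421547 in the male libraries and between 554669 and 1048937 in the female libraries, with 11375 to 15035 and 13092 to 14583 genes detected. The ASC identity was present in both groups: Pi16, which marks interstitial progenitors, was at 1409.6, 2960.1 and 4733 CPM in male and 1104, 2523 and 5094 CPM in female libraries, and Dpp4 itself was at 121, 241 and 343 against 92.3, 221 and 489 CPM. Neither gene passed the test (adjusted p = 0.912 and 0.946).

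The sex-chromosome transcripts went against the label in many libraries. Male libraries A to D held 0 Xist reads and 57 to 133 reads of Ddx3y, Eif2s3y, Uty and Kdm5d together, whereas male E to H held 27 to 71 Xist reads beside 8 to 32 Y reads. Female C and D held 101 and 50 Xist reads and no Y reads, and the other 6 female libraries held 23 to 47 Y reads. Of these 6, female A and F held 4 and 8 Xist reads, and female B, E, G and H held 25 to 55, so that both kinds of transcript were present. By a limit of 20 Xist reads or 3 Y reads, 4 male and 6 female libraries went against their label, so that "male" and "female" below are the labels. The study's methods report low counts of Ddx3y and Eif2s3y in female control samples. They read these as weak contamination with male mRNA, and propose from low Sult1e1 and C7 that the samples can be used. The cause was not tested here. Separately, male B, C, D and F stood apart on the first principal component (29.8% of the variance of 8690 genes). Dpysl2, Gnb1 and Tug1 together reached 4727 to 25550 CPM there, against 842 to 1794 CPM in the other 12 libraries, and ribosomal protein genes made up 2.17% to 7.83% of the normalised counts against 8.20% to 17.3%. Results are therefore given also without these 4 libraries and, where it matters, without the 10 libraries against their label. Only 1 male library was neither against its label nor apart, so both could not be left out together.

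**Figure D1:**
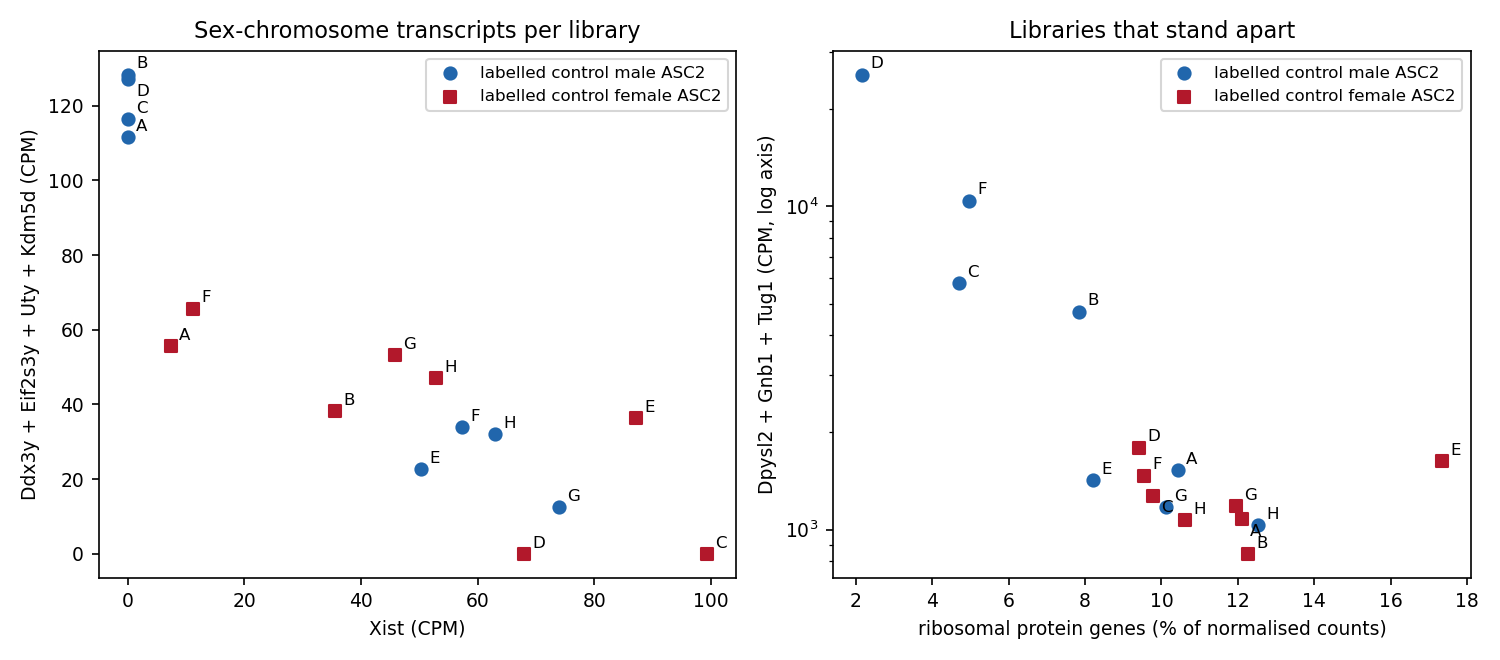
Left, Xist (CPM, x) against the summed CPM of 4 Y-linked genes (y). Right, the ribosomal protein share of normalised counts in percent (x) against the summed CPM of Dpysl2, Gnb1 and Tug1 (y, log axis). Each point is 1 control ASC2 library, blue circles labelled male and red squares labelled female, with the plate row as letter. Male E to H hold both kinds of transcript, 6 female libraries hold Y transcripts, and male B, C, D and F lie at or above 4727 CPM on the right.

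C7 and Sult1e1 followed the label in every one of the 16 libraries, also in those whose sex-chromosome transcripts did not. C7, a component of the complement membrane attack complex (chromosome 15), was at 209, 332 and 1664 CPM in male and at 0, 5.88 and 14.7 CPM in female libraries. The lowest male library lay above the highest female library, and the fitted difference was 87.6-fold (log2 6.45 ± 0.50 SE, adjusted p = 8.02e-15). The highest male value was that of library D, and without the 4 libraries that stand apart the log2 difference was 5.52 (adjusted p = 1.08e-12). Sult1e1, the estrogen sulfotransferase that inactivates estrogens by adding sulfate (chromosome 5), was at 34.6, 87.6 and 154 CPM in male libraries and had 0 reads in all 8 female libraries. Against a floor of 3 counts over the female group, 0.531 CPM, this is at least 156.7-fold higher (adjusted p = 1.02e-08, and 8.21e-07 without the 4 libraries). In an exact two-sided permutation test on log2(CPM + 1) the means were 8.72 ± 0.95 (SD, n = 8) against 2.42 ± 1.27 (SD, n = 8) for C7 and 6.28 ± 0.71 (SD, n = 8) against 0 for Sult1e1, with p = 0.000155 for each, the smallest value that all regroupings can give. Groups that do not overlap always give this value. The study had already reported both genes in this same series, so the p is no independent support.

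Promoter sequences are shown for C7, Sult1e1 and Akr1c14, a hydroxysteroid dehydrogenase that was higher in female, because nuclear hormone receptors can act through such regions. They were read from RefSeq (build GRCm38.p6), run 5′ to 3′ on the gene's own strand and hold the 250 bases before the annotated start, at chr15:5063774-5064023 (minus strand) for C7, chr5:87591612-87591861 (minus strand) for Sult1e1 and chr13:4059341-4059590 (plus strand) for Akr1c14. Capitals mark GGTCA, the core motif of estrogen receptor binding, or AGAACA, a core motif of androgen and glucocorticoid receptors, on either strand.
C7: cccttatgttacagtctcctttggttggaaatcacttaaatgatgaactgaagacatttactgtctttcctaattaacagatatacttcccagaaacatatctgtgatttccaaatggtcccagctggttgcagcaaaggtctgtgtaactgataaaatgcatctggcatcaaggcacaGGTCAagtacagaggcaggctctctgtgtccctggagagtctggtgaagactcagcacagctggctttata
Sult1e1: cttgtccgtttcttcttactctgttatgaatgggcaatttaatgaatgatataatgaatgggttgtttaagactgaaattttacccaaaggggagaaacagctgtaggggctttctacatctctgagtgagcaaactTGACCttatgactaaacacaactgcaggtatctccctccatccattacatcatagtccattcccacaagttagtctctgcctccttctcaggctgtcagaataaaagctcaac
Akr1c14: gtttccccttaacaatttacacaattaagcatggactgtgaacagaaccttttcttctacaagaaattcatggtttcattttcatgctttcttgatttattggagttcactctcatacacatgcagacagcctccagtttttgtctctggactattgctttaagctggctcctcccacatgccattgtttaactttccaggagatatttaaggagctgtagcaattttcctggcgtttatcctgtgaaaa
C7 and Sult1e1 each held 1 GGTCA and no AGAACA, and Akr1c14 held neither.

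Across the autosomes, 783 genes passed an adjusted p of 0.05 (6.55% of those tested), 435 higher in male (3.64%) and 348 higher in female (2.91%). Without male B, C, D and F, 37 genes passed (0.309%), 15 higher in male (0.125%) and 22 higher in female (0.184%). At an unadjusted p under 0.05 the numbers were 2434 and 1204. The 2 sets shared 34 genes, all in the same direction, 15 higher in male and 19 higher in female. Without the 10 libraries against their label 491 genes passed, of which 248 were among the 783, and 781 of the 783 kept their direction. That fit rests on 4 male libraries, A to D, and 2 female libraries, C and D. Male B, C and D are among those that stand apart, and female C and D also differ, as given below. These libraries were part of the fit that made the 783 calls, so the kept direction is no independent check. In 33 genes every male library lay above every female library (0.276%) and in 32 the reverse held (0.268%).

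**Figure D2:**
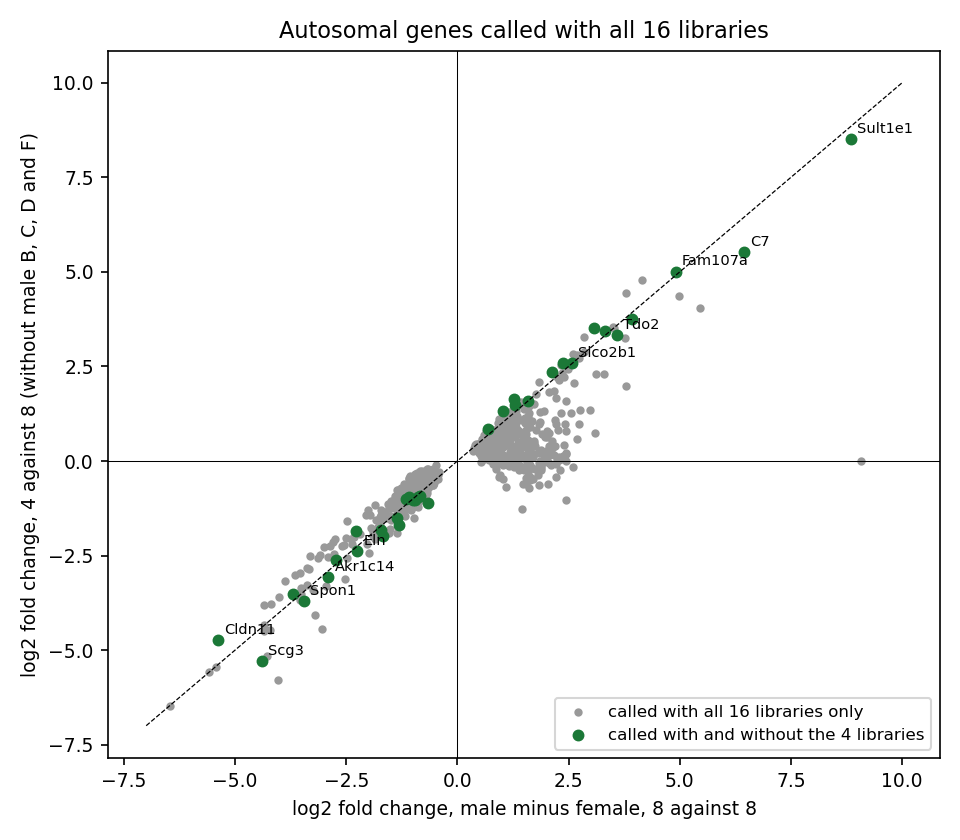
Each point is 1 of the 783 autosomal genes called with all 16 libraries. The x axis is its log2 fold change (male minus female) in 8 against 8 libraries and the y axis that in 4 against 8, without male B, C, D and F. Green points are the 34 genes called both ways and lie near the dashed line of equal change. Many grey points on the male side lie near 0 on the y axis, among them the pseudogene Rps6-ps4 at 9.09 on the x axis. The value of Sult1e1, which has no female read, depends on the fit.

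The 34 genes called with and without the 4 libraries are described next. This set was chosen after the values had been seen, by tests on these same libraries. Groups that do not overlap are therefore no separate result for these genes. On the male side, the expression of 6 of 15 genes did not overlap between the groups, beside 0.276% of all autosomal genes. These were C7, Sult1e1, Slco2b1, Tdo2, Nt5e and Cdh13. Slco2b1, an uptake transporter whose substrates include steroid sulfates, was at 34.0, 52.1 and 65.7 CPM in male and 2.80, 5.71 and 23.8 CPM in female libraries, 5.93-fold higher (log2 2.57 ± 0.33 SE, adjusted p = 3.85e-07). Without the 4 libraries its log2 difference was 2.58. Tdo2, tryptophan 2,3-dioxygenase, which opens the kynurenine pathway, was at 12.6, 25.5 and 39.6 against 0, 0 and 11.1 CPM, with reads in only 3 of 8 female libraries (log2 3.59 ± 0.55 SE, adjusted p = 1.6e-05). Nt5e, the CD73 ecto-enzyme that makes adenosine from AMP, was at 13, 19 and 27 against 0, 1.38 and 2.55 CPM (log2 3.92 ± 0.57 SE, adjusted p = 7.03e-06). Cdh13, the GPI-anchored T-cadherin that binds adiponectin, was at 31.8, 64.5 and 113 against 5.90, 11.9 and 20.5 CPM (log2 2.37 ± 0.34 SE, adjusted p = 3.83e-06). For each of these 4 genes all 8 male libraries lay above all 8 female libraries.

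The other 9 male-higher genes overlapped between groups. Il1r2, the decoy receptor that captures interleukin-1, was at 461, 684 and 958 CPM in male and 126, 174 and 643 CPM in female libraries (log2 1.58 ± 0.28 SE, adjusted p = 0.000197). Its overlap came from female E alone, which held the 643 CPM. Inmt, a methyltransferase of indoleamines, was at 131, 372 and 509 against 48.9, 109 and 299 CPM (log2 1.27, adjusted p = 0.00893). Ramp1, a partner subunit of the CGRP receptor, was at 4.46, 22.7 and 28.0 against 0, 0 and 6.79 CPM (log2 3.32, adjusted p = 0.000303). Dkk3, a secreted Dickkopf-family glycoprotein, was at 67.0, 107 and 151 against 17.4, 41.4 and 74.6 CPM (log2 1.29, adjusted p = 0.00269). Fam107a was at 0, 4.31 and 12.6 CPM with 0 reads in every female library, at least 10.1-fold higher over the same floor (adjusted p = 0.000898). Scml4, Anxa8, Tgfb3 and 2010111I01Rik completed the list, with log2 differences of 2.12, 3.08, 0.69 and 1.02. Without the 10 libraries against their label all 15 genes kept their sign and 10 passed. That fit again rests on male A to D and female C and D, which were part of the first fit. Dkk3, Ramp1 and Anxa8 were at log2 0.35, 1.45 and 1.92 there (adjusted p = 0.758, 0.421 and 0.416).

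**Figure D3:**
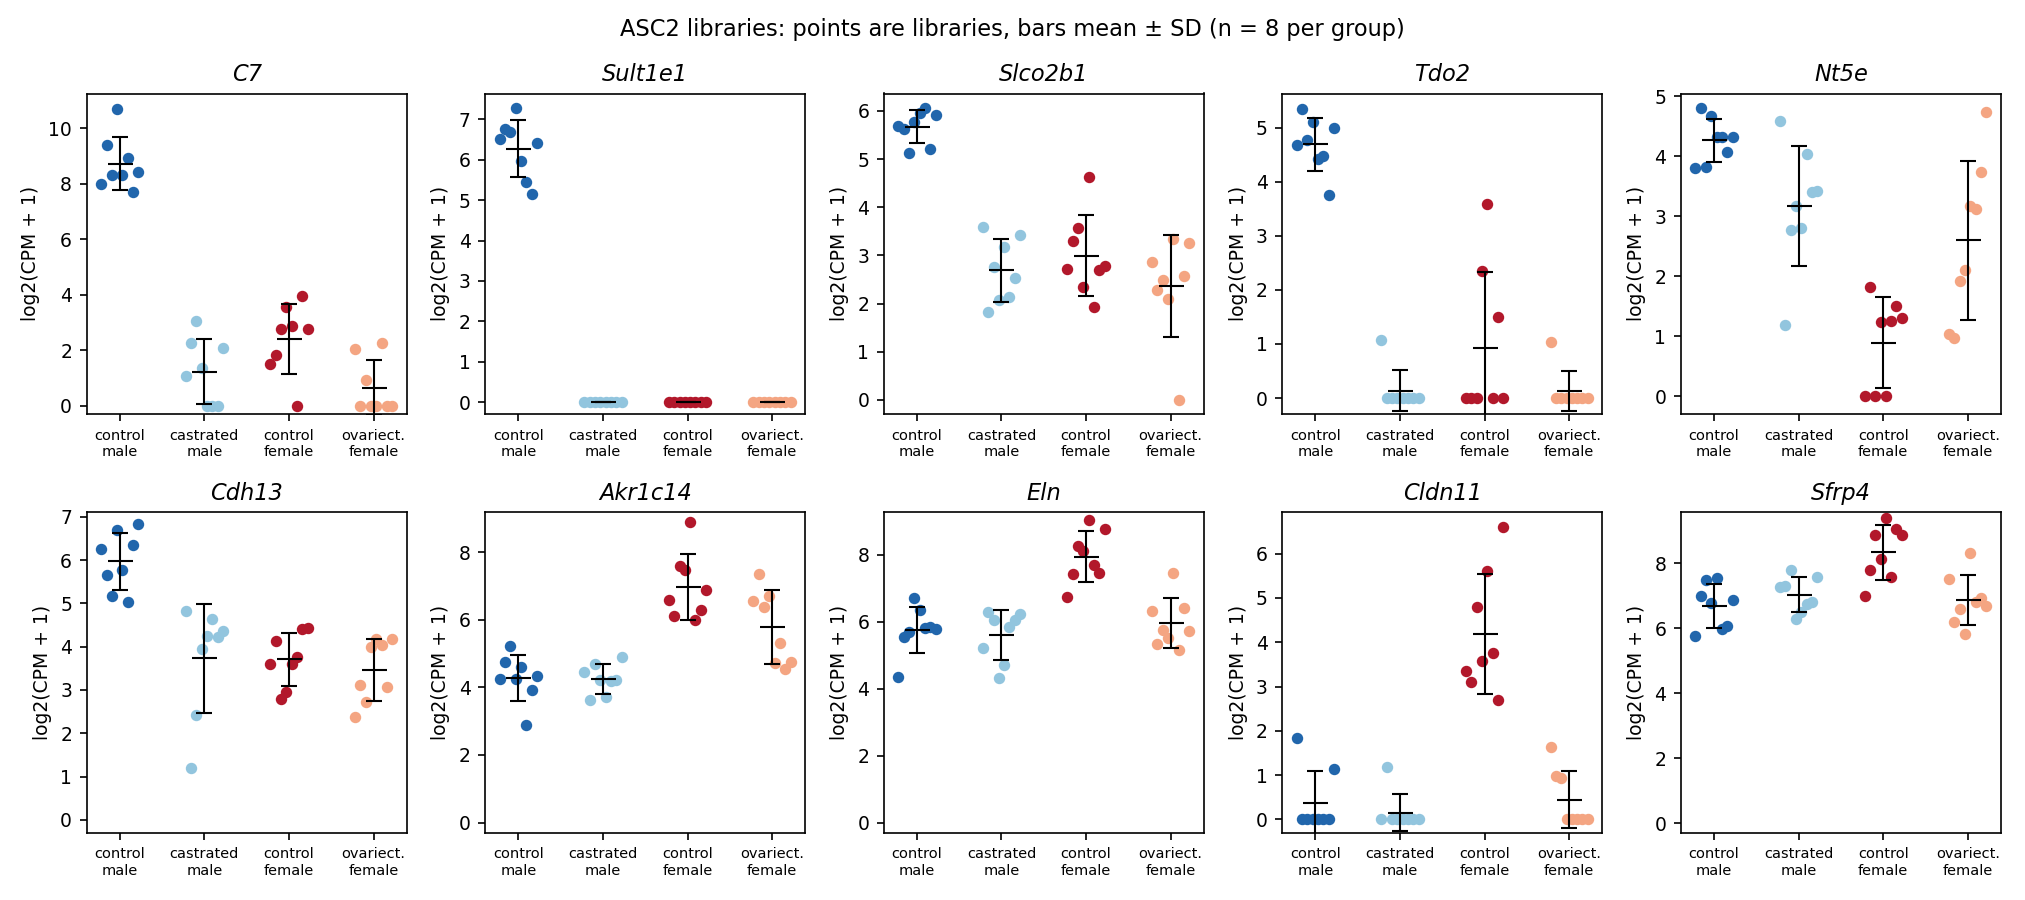
Expression as log2(CPM + 1) of 10 of the 34 genes in ASC2 of control male, castrated male, control female and ovariectomized female mice. Each point is 1 library, and bars are mean ± SD (n = 8 per group). Control male points of C7, Sult1e1, Slco2b1, Tdo2, Nt5e and Cdh13 lie above all control female points, and Akr1c14, Eln and Cldn11 show the reverse.

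On the female side, 9 of 19 genes did not overlap, beside 0.268% of all autosomal genes, and these 19 were chosen by tests on the same libraries. Akr1c14, a 3-alpha-hydroxysteroid dehydrogenase (chromosome 13), was at 62.9, 105 and 472 CPM in female and 6.36, 18.6 and 36.2 CPM in male libraries, 7.48-fold higher in female (log2 -2.90 ± 0.40 SE, adjusted p = 2.14e-06). Reads of the near-identical Akr1c paralogs may have been split between them, so its level is uncertain. Eln, elastin, was at 106, 240 and 526 against 19.5, 54.9 and 103 CPM, 4.77-fold higher (log2 -2.25 ± 0.31 SE, adjusted p = 2.72e-06). Cldn11, a tight junction claudin, was at 5.50, 11.7 and 95.4 CPM in female libraries and had reads in only 2 of 8 male libraries, at most 2.60 CPM (log2 -5.38 ± 0.73 SE, adjusted p = 1.71e-06). Each of these 3 genes was lower in every male library than in any female library, and their log2 differences without the 4 libraries were -3.06, -2.38 and -4.74.

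Sfrp4, a secreted Wnt antagonist, was at 128, 373 and 675 CPM in female and 53.2, 112 and 184 CPM in male libraries (log2 -1.71 ± 0.29 SE, adjusted p = 9.8e-05). Spon1, F-spondin of the extracellular matrix, was at 11.1, 83.9 and 132 against 2.83, 6.35 and 17.0 CPM (log2 -3.45, adjusted p = 0.000107). Ptx3, the long pentraxin of innate immunity, was at 11.1, 26.8 and 52.3 against 1.57, 3.04 and 11.9 CPM (log2 -2.73, adjusted p = 0.000197). In these 3 genes the groups overlapped. Scg3, a secretogranin, had reads in 7 of 8 female libraries and 1 of 8 male libraries (log2 -4.40, adjusted p = 0.000404). H2-Ab1, a class II histocompatibility chain that shares sequence with related genes, was at 13.2, 24.5 and 40.3 against 1.57, 6.78 and 15.4 CPM (log2 -1.67, adjusted p = 0.00144).

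Small housekeeping genes made up much of the rest. Mrpl43 of the mitochondrial ribosome was at 40.3, 59.3 and 66.5 CPM in female and 17.8, 25.4 and 40.3 CPM in male libraries (log2 -1.16, adjusted p = 5.65e-05). Uqcrq, a subunit of respiratory complex III, was at 211, 261 and 308 against 62.5, 128 and 165 CPM (log2 -1.09, adjusted p = 9.6e-05). Snrpf of the spliceosome, Ap2s1 of the clathrin adaptor and Jagn1 did not overlap either, at log2 -2.29, -1.0 and -0.89. Pgam1 of glycolysis, Arsi, Rtraf, Gadd45g and Cd164 were at log2 -0.85, -1.36, -0.96, -1.32 and -0.67. Without the 10 libraries against their label all 19 genes kept their sign and 13 passed, again with libraries that were part of the first fit. Without the 4 libraries and also without female C and D, 15 genes passed across the autosomes, all among the 783, 9 higher in male and 6 higher in female. They included 9 of the 15 male-higher genes and 5 of the 19 female-higher genes above. For Akr1c14, Eln, Cldn11 and Sfrp4 the adjusted p was then 0.00233, 0.00225, 0.00406 and 0.0205.

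The gonadectomized ASC2 groups give these genes beside mice without gonads. They share their control libraries with the comparison above, and the genes were chosen for their difference in those libraries. The contrasts with the controls, from the same edgeR fit, are therefore no independent result. Sex-chromosome transcripts were not examined in these groups. Ovariectomized ASC2 libraries N and P held only 248114 and 106566 counts. Between castrated and control males 7% of autosomal genes were called, and between ovariectomized and control females 2.06%. In castrated males C7 was at 0, 1.35 and 7.26 CPM, Sult1e1 at 0 in all 8 libraries, Slco2b1 at 2.55, 5.30 and 11.0 CPM and Tdo2 at 0, 0 and 1.10 CPM. Those medians were at or below those of control females. Castrated minus control male was log2 -7.92 for C7, -3.03 for Slco2b1 and -6.19 for Tdo2 (adjusted p = 3.37e-16, 6.19e-09 and 1.07e-08). Il1r2 was at 42.2, 84.5 and 136 CPM and Inmt at 7.65, 34.9 and 59.9 CPM in castrated males. Both genes were also lower in ovariectomized than in control females, at 69.0 and 38.6 CPM in the median (log2 -1.86 and -1.75, adjusted p = 0.000143 and 0.00195). Nt5e was at 1.27, 8.78 and 23 CPM in castrated males, a log2 difference of -0.91 from control males (adjusted p = 0.195). In ovariectomized females Nt5e was at 0.96, 5.49 and 25.7 CPM, the highest from 3 reads in library P. That is log2 2.12 above control females, which did not pass (adjusted p = 0.082).

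For the female-higher genes the ovariectomized group is the one without ovaries. Eln was at 34.6, 52.1 and 173 CPM there, a log2 difference of -1.93 from control females (adjusted p = 0.00013), and Cldn11 had a median of 0 and at most 2.10 CPM (log2 -4.92, adjusted p = 2.99e-05). Sfrp4 was at 56.0, 107 and 316 CPM (log2 -1.46, adjusted p = 0.00195). Akr1c14 was at 22.3, 60.5 and 163 CPM, a log2 difference of -1.09 that did not pass (adjusted p = 0.11). Its values split by plate row, with 82.5 to 163 CPM in rows I to L and 22.3 to 38.5 CPM in rows M to P. The median lies in the gap between them, and the reason for the split was not tested. Spon1 was at 0, 50.2 and 135 CPM (log2 -0.19, adjusted p = 0.938). In castrated males, Snrpf, Ap2s1 and Pgam1 were higher than in control males by log2 1.84, 0.70 and 0.96 (adjusted p = 0.00172, 0.00936 and 0.000143). Control male ASC2 is the group that holds the 4 libraries that stand apart, and the castration contrast was not refitted without them.

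The genes that the study lists as sexually dimorphic in ASC were, by its methods, chosen in single-cell data and in sorted-cell libraries that are not among these 16. The study then tested them between control males and females of this same series, with DESeq2 and a limit of 2-fold. It reports C7, Sult1e1 and Angpt1, among others, as different there, and Fkbp5, Arhgap24 and Ace as not significant. The calls below are therefore not a first test in this series. Over all autosomal genes 3.64% were called higher in male and 2.91% higher in female. Of the study's male-enriched autosomal genes 22 were tested, and 8 were higher in male and 0 in female. Their median log2 difference was 0.71, against -0.01 over all autosomal genes. Beside C7, Sult1e1 and Nt5e the called genes were Arl4a, Prelp, Angpt1, Fkbp5 and Arhgap24. Arl4a, a small GTPase of the ARF family, was at 34.6, 83.4 and 145 CPM in male and 10.3, 24.6 and 47.5 CPM in female libraries (log2 1.85 ± 0.31 SE, adjusted p = 9.44e-05). Prelp, a small leucine-rich proteoglycan, was at 180, 328 and 587 against 67.1, 131 and 255 CPM (log2 1.37, adjusted p = 0.014). Angpt1, the ligand of the endothelial receptor Tek, was at 6.36, 8.27 and 37.9 against 0, 1.65 and 9.78 CPM (log2 2.22, adjusted p = 0.0177). Fkbp5, a chaperone of steroid receptors, was at log2 0.86 and Arhgap24 at 0.83 (adjusted p = 0.0348 and 0.0194). Without the 4 libraries, C7, Sult1e1 and Nt5e passed, the median was 0.69, and Arl4a was at log2 1.04 (adjusted p = 0.199) and Prelp at 0.72 (adjusted p = 0.589).

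Of the study's female-enriched genes 11 were tested, and 4 were higher in female and 0 in male, with a median of -0.77. Beside Akr1c14 these were Il4ra, Spon2 and Fbxw17. Il4ra, the interleukin-4 receptor alpha chain, was at 228, 356 and 1169.96 CPM in female and 143, 238 and 295 CPM in male libraries (log2 -1.19, adjusted p = 0.00654). Spon2, a secreted spondin, did not overlap between groups, at 460, 506 and 659 against 225, 308 and 408 CPM (log2 -0.77, adjusted p = 0.0391). Without the 4 libraries Akr1c14 alone passed and the median was -0.47. Without female C and D instead, Akr1c14 was at log2 -2.82 (adjusted p = 2.16e-05), whereas Il4ra, Fbxw17 and Spon2 were at -0.57, -0.67 and -0.72 (adjusted p = 0.239, 0.255 and 0.0932). The study also lists genes dimorphic in both depots. In these lists 8 of 17 male-enriched genes were higher in male (median 0.83) and 2 of 7 female-enriched genes were higher in female (median -0.43). The male ones included Ecm1, a secreted matrix glycoprotein at 552, 1282 and 2110 against 237, 451 and 987 CPM (log2 1.28, adjusted p = 0.00127), and the female ones were Postn and Ltbp4. Without the 4 libraries Fam107a and Tdo2 passed in the first list and none in the second.

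**Figure D4:**
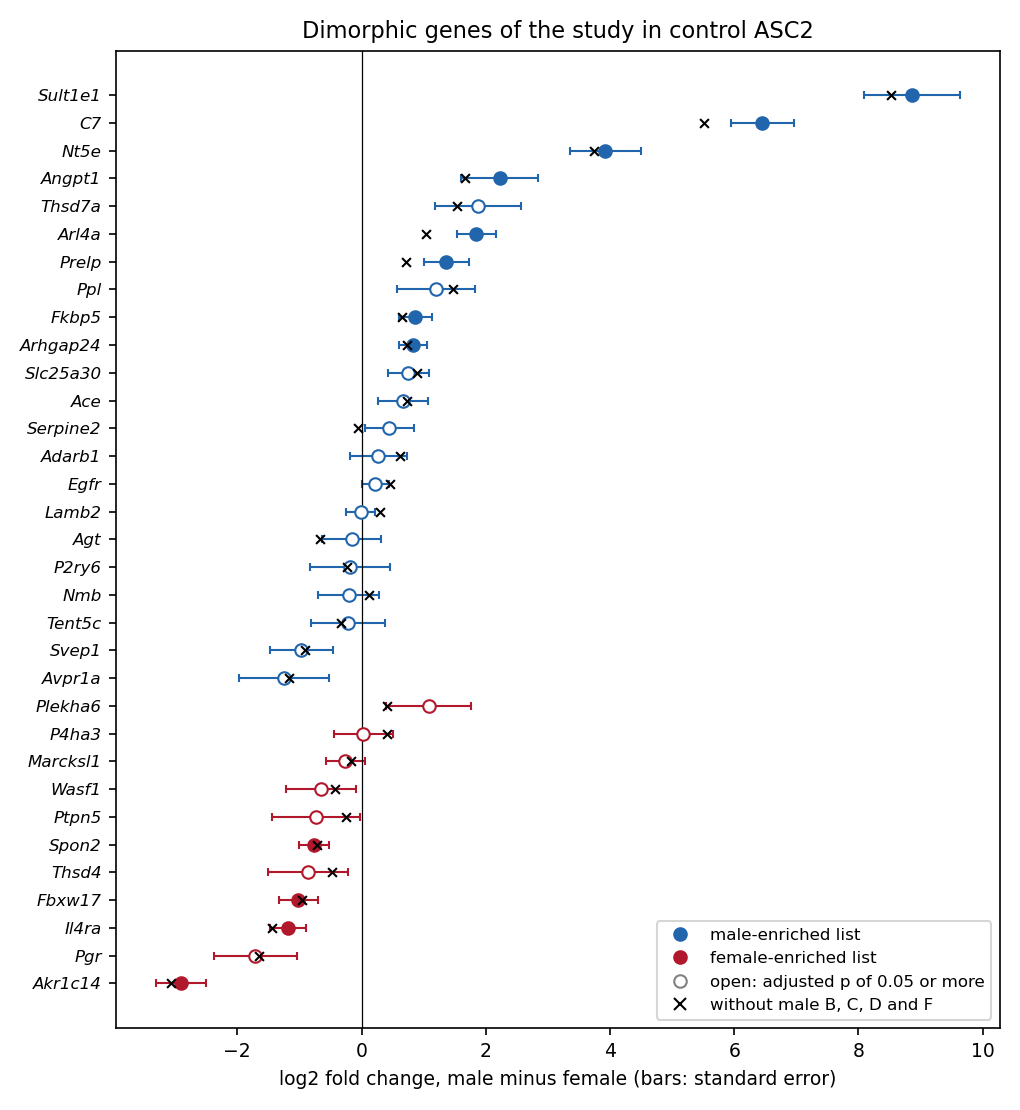
Log2 fold change, male minus female (x), of the 33 tested autosomal genes of the study's male-enriched (blue) and female-enriched (red) lists in control ASC2, 8 against 8 libraries. Bars are standard errors, open circles did not pass an adjusted p of 0.05, and crosses give the value without male B, C, D and F. Of the filled points 8 lie right of 0 and 4 left of it. The value of Sult1e1 depends on the fit.

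Steroid enzymes moved in both directions, and over all autosomal genes 6.55% were called. Of 21 tested, Sult1e1 and Papss2 were higher in male, and Akr1c14, Akr1c18 and Cyp7b1 were higher in female, around a median of -0.11. Papss2, which makes the sulfate donor that sulfotransferases use, was at 35.6, 47.8 and 85.6 CPM in male and 11.1, 28.7 and 46.1 CPM in female libraries (log2 0.92 ± 0.24 SE, adjusted p = 0.0128), and at log2 0.53 without the 4 libraries (adjusted p = 0.529). Akr1c18, a 20-alpha-hydroxysteroid dehydrogenase that inactivates progesterone, was at 107, 193 and 457 against 243, 500 and 2529 CPM (log2 -1.73 ± 0.48 SE, adjusted p = 0.0188), and at -1.59 without them (adjusted p = 0.338). Srd5a1, which makes dihydrotestosterone, was at 8.48, 13.7 and 40.3 against 2.95, 7.49 and 11.1 CPM and did not pass (log2 1.15, adjusted p = 0.11). Hsd11b1, which regenerates glucocorticoid, did not pass either (log2 -0.98, adjusted p = 0.289). Aromatase, Cyp19a1, had no read in any of the 16 libraries.

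Receptors and textbook response genes were called in both directions, 3 in each of 3 lists, beside 6.55% of all autosomal genes. Of 21 hormone receptors and partners, Ncoa3 and Fkbp5 were higher in male and Rxfp2 in female (median -0.18). Without the 4 libraries 0 passed, and Ncoa3 and Fkbp5 were at log2 0.18 and 0.66. Rxfp2 had reads only in female C and D. The estrogen receptor gene Esr1 was at 11.0, 20.5 and 73.6 CPM in male and 14.8, 35.4 and 87.1 CPM in female libraries (log2 -0.48, adjusted p = 0.471). Pgr, the progesterone receptor and a classical estrogen target, was at 2.12, 5.01 and 8.92 against 1.83, 8.36 and 62.4 CPM (log2 -1.71, adjusted p = 0.115). Of 13 estrogen response genes, Cxcl12 and Krt19 were higher in female and Ncoa3 in male, with a median of -0.67, and 0 passed without the 4 libraries. Cxcl12, the chemokine ligand of Cxcr4, was at 107, 192 and 593 against 51.3, 99.7 and 165 CPM (log2 -1.45, adjusted p = 0.00476), and was at log2 -0.87 without female C and D (adjusted p = 0.125). Of 17 glucocorticoid and androgen response genes, Fkbp5 and Glul were higher in male and Nfkbia in female (median -0.18), and 0 passed without the 4 libraries. Glul, glutamine synthetase, was at 113, 181 and 259 against 55.9, 91.8 and 147 CPM (log2 0.93 ± 0.19 SE, adjusted p = 0.000895).

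C7 was the single complement gene of 22 tested that passed by edgeR, beside 6.55% of all autosomal genes, and the list's median was 0.03. C3, the central component, was at 844, 1797 and 3164 CPM in male and 291, 1689.5 and 3554 CPM in female libraries (log2 -0.06, adjusted p = 0.97). In the renin-angiotensin system 1 of 10 genes passed, which is near the same share. It was Mme, the peptidase neprilysin, at 22, 43.6 and 89.2 against 0, 15.6 and 33.1 CPM (log2 1.60, adjusted p = 0.0391). Ace was at 84.4, 194 and 300.5 against 27.8, 122 and 227 CPM (log2 0.66, adjusted p = 0.362), and Agt was at 3.53, 8.76 and 19.8 against 0, 12.8 and 22.2 CPM (log2 -0.16, adjusted p = 0.903). Of these genes C7 alone passed without the 4 libraries.

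The matrix and growth factor counts are to be read beside the 6.55% of all autosomal genes called. Among matrix genes, 2 of 9 small leucine-rich proteoglycans were higher in male, Prelp and Dcn (median 0.55). Dcn, decorin, was at 3784, 6714 and 8231 CPM in male and 1926, 3566 and 9180 CPM in female libraries (log2 0.67, adjusted p = 0.0498). Of 23 collagen chains Col1a1 was higher in female (log2 -0.79, adjusted p = 0.0476), and the list's median was -0.08, or 0.0 with the chain that has no read in a group at its bound. In the TGF-beta and BMP pathway Tgfb3 and Ltbp1 were higher in male and Ltbp4 in female, of 26 tested. Ltbp1, which anchors latent TGF-beta in the matrix, did not overlap, at 158, 218 and 638 against 50.2, 102 and 150.3 CPM (log2 1.39, adjusted p = 0.000164), and was at log2 0.79 without the 4 libraries (adjusted p = 0.187). In the Wnt pathway, of 23 tested, Dkk3 was higher in male and Sfrp4 and Frzb in female. H19 of the IGF list was higher in male (1 of 14), and of 18 angiopoietin and VEGF ligands Angpt1 was higher in male and Angptl1 and Fgf10 in female.

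Immune signalling genes gave calls in both directions, beside 6.55% of all autosomal genes. Of 16 cytokine receptors and decoys, Il1r2, Lifr, Il18r1 and Ifngr1 were higher in male and Il4ra, Il17ra and Tnfrsf11b in female (median 0.19), and Il1r2 alone passed without the 4 libraries. Ccl19, Cxcl5 and Cxcl12 were higher in female among 15 chemokines (median 0.16). Of 22 interferon-stimulated genes 4 were higher in male and 0 in female (median 0.44), among them Ifit2, Ifi44 and Gbp3, and without the 4 libraries 0 passed and the median was 0.20. Ifit2, an interferon-induced protein with tetratricopeptide repeats, was at 12.6, 46.7 and 91.5 CPM in male and 3.7, 15.6 and 35.3 CPM in female libraries (log2 1.45, adjusted p = 0.00586). Egr2 and Btg2 were higher in male and Jun in female among 24 immediate early and stress genes.

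Cell identity and growth lists are to be read beside the same 6.55% of all autosomal genes. None of 22 adipogenic and lipid-handling genes passed by edgeR, against 5 at an unadjusted p under 0.05 and 1 by DESeq2. None of 25 proliferation genes, 10 and 7 Hox genes of the anterior and posterior groups and 4 inguinal depot genes passed by edgeR or DESeq2, against 3, 2, 1 and 0 at an unadjusted p under 0.05. Pparg, the regulator of adipogenesis, was at 15.7, 49.0 and 79.2 CPM in male and 0.98, 34.9 and 56.8 CPM in female libraries (log2 0.50, adjusted p = 0.504). Without the 10 libraries against their label it was at log2 4.94 (adjusted p = 0.000199), where the female group was C and D alone. Mki67 was at log2 -0.12 (adjusted p = 0.881). Of 18 ASC2 markers, Stmn4 was higher in male and Aif1l in female, of 15 ASC1 markers Apoe was higher in female, and of 6 fibroblast markers Dcn was higher in male and Col1a1 in female.

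Markers of cells outside the sort were present at differing levels, and some moved with the label. Their counts are to be read beside the 6.55% of all autosomal genes called. The 23 mammary epithelium genes summed to between 26.8 and 211 CPM in male and between 126 and 326 CPM in female libraries, and 3 of 15 tested were higher in female, Krt19, Ly6d and Cxadr. Krt19 did not overlap, at 50, 65.2 and 211 against 0, 17.0 and 24.0 CPM (log2 -2.39, adjusted p = 0.000413), whereas Krt18 did not pass (log2 0.60, adjusted p = 0.752) and Epcam had reads in 3 of 8 libraries of each group. Ptprc, the pan-leukocyte CD45, was at most 14.5 CPM, and Mcpt8 of basophils was the single blood cell gene called of 10, higher in male. The blood cell list summed to 789 to 2012 CPM in male and 861 to 1828 CPM in female libraries. Of 9 endothelial genes Kdr and Lyve1 were higher in female, Pecam1 was at log2 -0.09, and the list summed to 112 to 223 CPM in male and 113 to 291 CPM in female libraries. Kcnj8 and Abcc9 were higher in female among 9 mural cell genes, which summed to 143 to 1182 and 238 to 2548 CPM. None of 3 adipocyte genes passed by edgeR, DESeq2 or at an unadjusted p under 0.05. The part of these cells in the differences above was not tested.

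Female C and D differed from the other female libraries in genes of the perigonadal depot. Tcf21, a transcription factor of visceral fat and mesothelium, held 31 and 22 reads there, 1 read in female E and 0 elsewhere. The list of 11 such genes summed to between 55.6 and 230 CPM in female and between 6.69 and 35.3 CPM in male libraries, and its median log2 difference over 10 tested genes was -2.28, or -2.05 with genes without a male read at their bound. Tcf21 was at least 20.8-fold higher in female (adjusted p = 0.0437) and Krt19 was the other gene called, beside 6.55% of all autosomal genes. Several of the larger female-side differences lay in the same 2 libraries. Frzb, a secreted Wnt antagonist, was at 218 and 295 CPM there and at most 9.44 CPM in the other 14 libraries, Saa3 was at 140 and 442 CPM, Cyp7b1 at 123 and 166 CPM, Ndufa4l2 at 184 and 214 CPM, and Rxfp2, a relaxin-family receptor, at 56.1 and 63.8 CPM with 0 reads elsewhere. Without C and D the log2 difference of Frzb was 1.43 in place of -3.68 and that of Saa3 was 0.24 in place of -4.21. Cyp7b1 and Ndufa4l2 were then at -0.51 and -0.90, with none of these genes past the threshold. Female C and D are also the only female libraries without Y reads.

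Many male-side differences lay in male B, C, D and F. Bhlhe41, a circadian repressor, was at 28.3, 137 and 547 CPM in male and 10.2, 24.7 and 47.5 CPM in female libraries (log2 3.09, adjusted p = 0.000197), and the 4 libraries held its 4 highest values, 219.95 to 547 CPM. Without them its log2 difference was 0.73 (adjusted p = 0.725). Dnm3os, a non-coding transcript that hosts microRNAs, was at 43.1, 130 and 921 against 7.41, 33.9 and 80.1 CPM, and its log2 difference of 2.69 became 0.60. The lncRNA Tug1 went from 2.44 to 0.18. The counts that follow are to be read beside 3.64% of all autosomal genes higher in male and 2.91% higher in female. Genes of ribosomal proteins showed the reverse: 23 of 77 were higher in female and 0 in male, with a median of -0.67. Without the 4 libraries 0 passed and the median was -0.21. Of 71 respiratory chain and ATP synthase genes, 19 were higher in female and 1 in male (median -0.46), against 1 and 0 without the 4 libraries (median -0.26). By transcript length, the shortest 10% of genes (1196 genes, at most 1341 bases) had a median of -0.33, with 119 higher in female and 14 in male. The longest 10% (1197 genes, at least 6759 bases) had a median of 0.10, with 7 higher in female and 59 in male. Without the 4 libraries these medians were -0.21 and 0.09. These gene classes were chosen after the data had been seen, and what sets the 4 libraries apart was not tested.

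The difference between the labelled sexes was also compared with that in ASC1, the cells without DPP4. Sex-chromosome transcripts were not examined in the ASC1 libraries, so male and female are labels there too. Control female ASC1 library A held only 139825 counts. In ASC1, 28 autosomal genes were called between control males and females (0.234%). Of the 15 male-higher genes above, 11 had the same direction in ASC1 and 6 were called there, namely C7, Sult1e1, Slco2b1, Tdo2, Il1r2 and Inmt. C7 was at 122, 171 and 337 CPM in male and 0, 10.3 and 20.8 CPM in female ASC1 libraries. Of the 19 female-higher genes, 18 had the same direction and 0 were called. A test of the difference between the populations called 15 genes (0.125%), and 4 remained without the 4 libraries that stand apart: Nt5e, Ptn, Serpina3c and Cavin2.

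Nt5e was at 2.22, 11.9 and 30.6 CPM in male and 5.35, 14.4 and 29.0 CPM in female ASC1, so that the groups that were separate in ASC2 overlapped, and the log2 differences differed by 4.4 ± 0.74 SE (adjusted p = 0.00216). Ptn, the heparin-binding growth factor pleiotrophin, was lower in male than in female ASC1 (0, 0 and 3.47 against 3.33, 6.4 and 38.7 CPM), but in ASC2 it was at 13, 23.5 and 40.3 against 4.4, 10.9 and 30.1 CPM, a difference of 4.77 ± 0.83 SE between the contrasts. Serpina3c was higher in male ASC1 (12.2, 24.9 and 40.0 against 0, 1.31 and 3.62 CPM), with 53.5, 79.4 and 93.3 against 27.9, 43.5 and 130 CPM in ASC2 (-3.21 ± 0.61 SE, adjusted p = 0.00645). Cavin2, a caveolar coat protein, was at log2 1.31 in ASC2 and -1.14 in ASC1 (difference 2.44 ± 0.47 SE, adjusted p = 0.00645). Eln, at log2 -2.25 in ASC2 and -0.17 in ASC1, was among the 15 as well (adjusted p = 0.0384), as were Mrpl43 and Tug1. ASC2 and ASC1 libraries of 1 plate row and sex may come from 1 mouse, which the labels do not say.

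The promoters of the 34 genes were searched for the same GGTCA and AGAACA motifs on either strand. Of the 33 genes off chromosome 18, 22 had an entry in the RefSeq promoter table, 10 of them higher in male and 12 higher in female. GGTCA was found in 6 of the 10 and 7 of the 12, against 35.2% of all 32851 promoters in the table. AGAACA was found in 0 of the 10 and 1 of the 12, against 16.1%. Neither motif as an inverted repeat with 3 bases between was found in these promoters, and such repeats were present in 0.0639% and 0.00913% of all promoters. A match or its absence in this window says nothing about binding.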

How the data were processed

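Smart-seq3 libraries of sorted iWAT cells were deposited as 1 table of 56953 genes by 58 libraries. Its values are estimated counts, made by the authors with Salmon 1.9.0 on Gencode vM32 (GRCm39). UMI and other reads were summed, and libraries under a minimum of detected genes were removed. FastQC 0.11.9, MultiQC 1.12 and STAR 2.7.10a served quality control. Of the deposited counts above 0, 15.0% were not whole. Counts were rounded. Genes that reached 5 reads in over 3 of the 58 libraries were fitted in 8 groups with edgeR 4.0.16 (quasi-likelihood F test, TMM, R 4.3.3), with Benjamini-Hochberg adjustment over all 12464 genes. SE is the absolute log2 fold change divided by the square root of F. Autosomal genes alone were reported. Groups were taken from titles, and p-values measure the spread between these libraries. Depth, 461907 to 1421547 counts in the 16 control ASC2 libraries, limits genes of few reads, and floors cover counting error only.

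Genes were named by this rule: C7 and Sult1e1, called genes of the study's core lists, the 12 largest called differences in each direction (mean 10 CPM or more, reads in 6 libraries or more), up to 4 called genes per list, defining markers, and 6 interaction genes, 79 in all. A few genes that the rule picks are not reported here. The genes called both ways, and the few others given outside the rule, were chosen after their values were seen. Members and the 35 lists (585 of 587 genes matched) were chosen with earlier results of these data known. Alternatives were DESeq2 1.42.0, limma voom 3.58.1, other scalings, filters and library sets. The test was checked on simulated data. No 2 libraries of a group agreed within sampling noise (lowest chi-square per gene 2.79).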

Additional observations from a re-analysis of the deposited data

Results flagged for a closer look

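In 18 of 158 sets of 8 values, 1 gene in 1 group each, the highest or lowest library lay further from the rest than Dixon's 95% critical value allows, and chance gives about 1 in 20. Male D was the extreme library for Angpt1 (37.9 CPM) and Ltbp1 (638 CPM), as the highest, and for Ramp1 (4.46 CPM), Ctla2a (6.69 CPM), Frzb (0 CPM), Kdr (0 CPM) and Krt19 (0 CPM), as the lowest. Of the 16 libraries it has the fewest counts, 461907. Male F was highest for Cyp7b1 (17.0 CPM) and lowest for Apoe (0 CPM). Male A was lowest for Col1a1 (497 CPM) and Nfkbia (42.8 CPM) and the single male library with Lyve1 reads (2.60 CPM). Male E was highest for Fbxw17 (58.6 CPM), and male G was lowest for Serpina3c (53.5 CPM). Among female libraries, E was highest for Il1r2 (643 CPM), B was the single library with Il18r1 reads (1.27 CPM), G was lowest for Mrpl43 (40.3 CPM), and D was lowest for Abcc9 (0 CPM).

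The difference between male and female differed between ASC2 and ASC1 in 15 autosomal genes by edgeR's interaction test. The 6 named were Nt5e (4.399, adjusted p = 0.00216), Ptn (4.77, adjusted p = 0.00216), Serpina3c (-3.21, adjusted p = 0.00645), Cavin2 (2.44, adjusted p = 0.00645), Mrpl43 (-1.33, adjusted p = 0.0185) and Tug1 (2.62, adjusted p = 0.0384), each as the log2 contrast in ASC2 minus that in ASC1. Mrpl43 and Tug1 were not called without the 4 libraries that stand apart.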

How the results depend on the processing

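The 783 calls (435 higher in male, 348 in female) stayed within 1.5 times under DESeq2, limma voom, RLE or library-size scaling, other filters, robust estimation and the 31 control libraries. They became 361 (211 and 150) with the 16 libraries alone, 200 (122 and 78) in plate rows A to D, 29 (19 and 10) in rows E to H, 441 (270 and 171) with at least a 2-fold difference, 37 (15 and 22) without the 4 libraries that stand apart, 15 (9 and 6) also without female C and D, and 491 without the libraries against their label (198 higher in male). Leaving out 1 library gave 447 to 968 calls, 240 to 513 higher in male and 207 to 499 in female, the lowest each time without male D. With the row letter as replicate block, 312 genes were called (169 and 143). Same-letter deviations correlated at only -0.14 to 0.18, over 0.1 in 3 of 8 pairs. Of 8 male libraries 2 correlated best with their own letter, and the main fit does not pair libraries by letter. Whether libraries of a plate row share a batch was not tested. The 15 interaction genes became 23 with RLE, 23 with another filter, 34 with library-size scaling, 156 without a filter, 7 with robust estimation, 6 with the 31 control libraries, 83 without female C and D, 4 without the 4 libraries and 7 without all 6. The cause was not tested.

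In the exact permutation test C7 and Sult1e1 had p = 0.000155 at every pseudocount and by rank. For both genes every male library lay above every female library, so each setting had to give this smallest value. The unchanged p is therefore no check. Of 2503 pairs of a named gene and an alternative, 2499 kept the direction. Most of these genes were named for their calls, and the alternatives refit the same counts or part of them. The kept direction is therefore no independent check. The 4 pairs that reversed were Frzb in rows E to H (1.34), without female C and D (1.43) and without the 6 libraries (1.56), and Saa3 without female C and D (0.24). The 4 male libraries, the 2 female libraries and the removals were chosen after seeing the data. Of the 79 named genes, 61 lost their call without the 4 libraries and 40 without those against their label. With 2 to 8 libraries a side, a p that misses the threshold does not show that groups are alike.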
